A study of Homo sapiens with 12 samples.

Results

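TKTL1 and 6 enzymes of the pentose phosphate pathway (TKT, TALDO1, PGD, PGLS, RPIA and RPE) were followed across 4 groups of HEK293 cells. All probes that carry one of these 7 gene symbols were taken, which gave 9 of the 22184 probes of the array, for 7 of the 16578 genes it names. TKTL1 was selected on its measured signal in RPF1 Tet- against RPF1 Tet+, so its values in comparisons that hold the RPF1 arrays are a description with no test. The other 6 genes were taken for their place in the pathway and were tested. All 7 genes were among the 13228 features that passed the detection filter, and TKTL1 passed it only through the RPF1 arrays.

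HEK293 is a human embryonic kidney cell line. Stable transfectants carried either a Mock construct or pTRE2puro with a cDNA of the transcription factor RPF-1, whose expression starts once tetracycline (Tet) is withdrawn. Culture lasted 48 h, with Tet present (Tet+) or absent (Tet-), so the 4 groups of 3 arrays are Mock Tet+, Mock Tet-, RPF1 Tet+ (uninduced) and RPF1 Tet- (induced). The labels do not say whether the Mock and RPF1 lines are single clones or whether replicates come from separate dishes, so every p-value reflects the spread of these arrays alone, which may be technical, and RPF1 against Mock compares 2 transfected lines.

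The pentose phosphate pathway branches from glycolysis at glucose 6-phosphate. Its oxidative branch makes NADPH and ribulose 5-phosphate, through steps that include PGLS (6-phosphogluconolactonase) and PGD (6-phosphogluconate dehydrogenase). Its non-oxidative branch interconverts sugars: RPIA and RPE turn ribulose 5-phosphate into ribose 5-phosphate and xylulose 5-phosphate, and TKT (transketolase) and TALDO1 (transaldolase) move short carbon units between sugars and lead back to glycolysis. TKTL1 is a transketolase-like protein that lacks part of the cofactor-binding region of TKT, and its own enzyme activity is disputed. It is known for expression in testis and in some tumours.

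The arrays had between 13568 and 14493 probes with a detection p under 0.05 and a median unprocessed signal of 277 to 357, and log2 values correlated at 0.989 to 0.996 within groups. Precision is limited by their number. The arrays lay on 3 chips: chip 1 held 2 Mock Tet+ arrays, chip 3 held 2 RPF1 Tet- arrays, and chip 2 held the other 8, with 1 array each of Mock Tet+ and RPF1 Tet- among them. Values with chip as a block in the fit, and from chip 2 alone, therefore stand beside the results. Chips 1 and 3 each held arrays of 1 group only, so the block and chip 2 alone give the same difference by design. They are 1 check and not 2, in which 1 array stands for Mock Tet+ and 1 for RPF1 Tet-. Of 7 markers fixed for HEK293 cells, NEFL, NEFM, VIM, KRT8 and KRT18 were detected on 12 of 12 arrays, while INA and PAX2 were detected on 0. Of 5 germ cell and testis markers, DDX4 and PRM1 were detected on 0 arrays, DAZL and SYCP3 on 1 and TNP1 on 3, and their summed linear signal ranged from 213 to 235 in RPF1 Tet+ and from 230 to 246 in RPF1 Tet-, so these testis markers stayed near background where TKTL1 was high. Of the markers of other cell types, CD3E, CD14, CDH5, KRT5, KRT14, TTR and FGB were detected on 0 arrays and ITGAM, PECAM1, KDR, ALB and APOA1 on at most 2, but PTPRC was detected on 9 and VWF and SFN on 12.

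The start regions of TKTL1 and TKT are shown because these related genes had opposite states in the Mock cells, where TKTL1 was not detected and TKT was detected on every array. Each window holds 250 bases before and 50 after a transcription start in RefSeq on GRCh38.p14, given 5′ to 3′ on the gene's strand, with CG dinucleotides in capitals. TKTL1 has 2 such starts on the plus strand of chromosome X, at chrX:154295545-154295844 and chrX:154304920-154305219. TKT has 1 on the minus strand of chromosome 3, at chr3:53255973-53256272.
TKTL1, first start: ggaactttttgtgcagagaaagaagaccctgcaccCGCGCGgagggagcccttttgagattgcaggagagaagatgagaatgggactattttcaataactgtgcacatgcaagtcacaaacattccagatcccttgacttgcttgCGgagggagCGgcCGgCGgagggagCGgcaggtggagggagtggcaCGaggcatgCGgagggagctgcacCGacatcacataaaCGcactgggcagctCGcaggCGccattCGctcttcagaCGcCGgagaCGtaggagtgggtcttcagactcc
TKTL1, second start: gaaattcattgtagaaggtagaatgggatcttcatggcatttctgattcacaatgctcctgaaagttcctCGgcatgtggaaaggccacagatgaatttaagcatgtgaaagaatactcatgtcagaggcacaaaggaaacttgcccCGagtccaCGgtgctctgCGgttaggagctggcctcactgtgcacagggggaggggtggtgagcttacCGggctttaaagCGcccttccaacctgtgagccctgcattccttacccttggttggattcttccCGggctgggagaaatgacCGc
TKT: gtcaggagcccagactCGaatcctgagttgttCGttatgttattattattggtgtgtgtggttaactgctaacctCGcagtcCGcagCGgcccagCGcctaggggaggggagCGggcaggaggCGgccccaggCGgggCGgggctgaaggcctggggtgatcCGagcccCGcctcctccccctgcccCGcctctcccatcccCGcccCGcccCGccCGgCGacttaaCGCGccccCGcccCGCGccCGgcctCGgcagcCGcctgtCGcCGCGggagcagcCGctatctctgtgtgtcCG

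The first TKTL1 window held 18 CG dinucleotides and the second held 8, against 31 in that of TKT and a median of 14 over 35116 such windows of the RefSeq table. The windows of the other 5 enzymes held between 24 and 44. The first TKTL1 window held 5 copies of GGAGGGAG, letters that were chosen for a search after the sequence was read. At least 1 copy, on either strand, was found in 9.17% of all windows and 4 or more copies in 0.182%. The octamer ATGCAAAT, looked for on both strands, was in 0 of the 8 windows of the 7 genes and in 1.77% of all windows. TGACNNNGC, the core letters of the antioxidant response element, was in 1 copy each in the windows of PGD and RPE and in 13.3% of all windows. These are matches of letters and mark no binding site.

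TKTL1 was near background in 3 groups and high in the induced RPF1 cells. Its log2 normalized signals were 5.57, 5.95 and 5.48 in Mock Tet+ and 5.94, 5.49 and 5.45 in Mock Tet-, and none of these 6 arrays detected it. In RPF1 Tet+ the signals were 5.90, 5.53 and 6.77, and only the third array detected it. In RPF1 Tet- they were 8.50, 9.18 and 8.46, with detection on 3 of 3 arrays, and no array of another group reached this range. The lowest signal of any detected probe on an array lay between 5.94 and 6.20, so the values of the undetected arrays have no order.

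**Figure D1:**
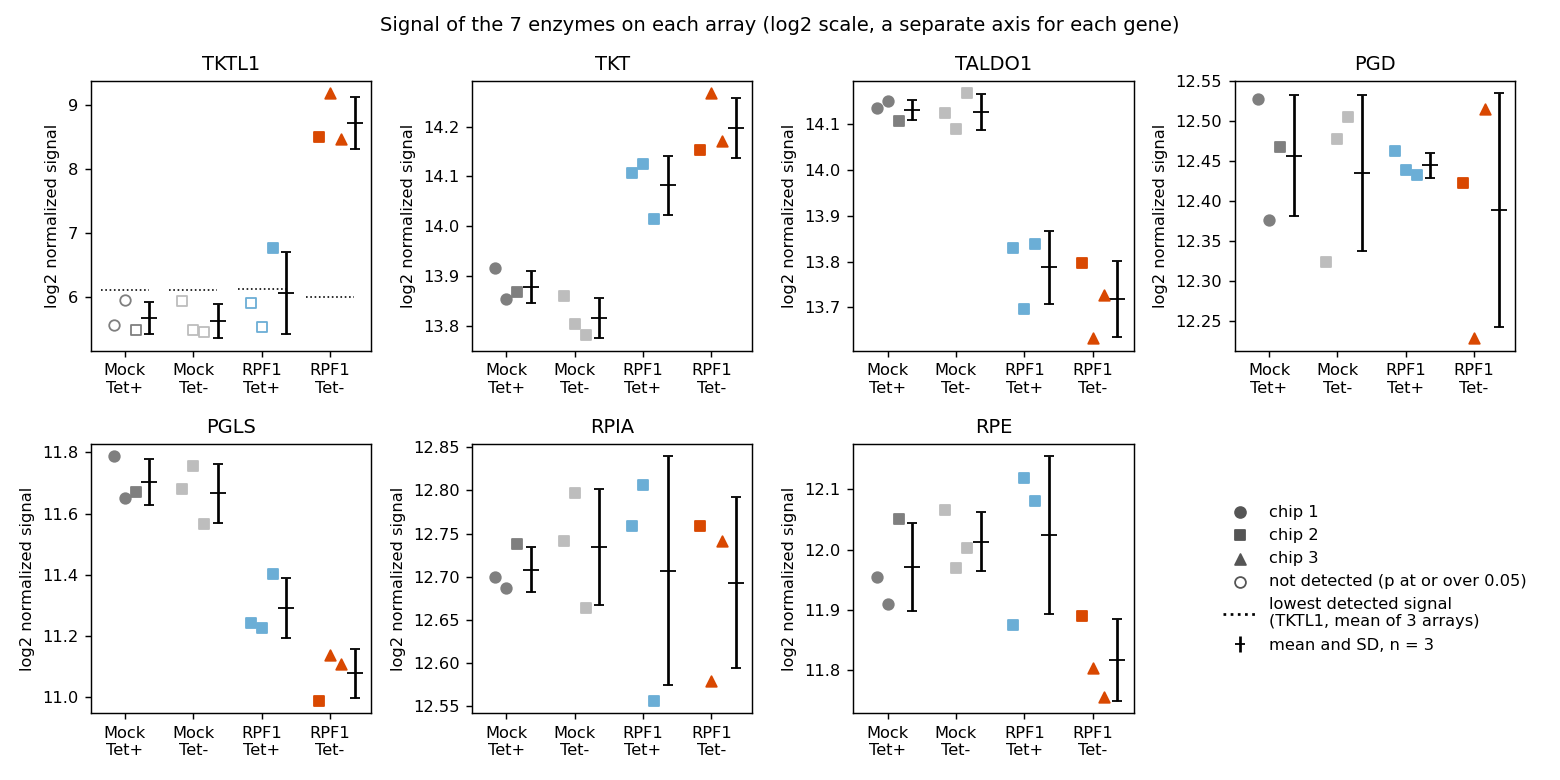
Each panel plots log2 normalized signal (y axis, its own range for each gene) of 1 enzyme on the 12 arrays by group (x axis). Points are arrays, shaped by chip and open where the probe was not detected; bars are mean and SD (n = 3). TKTL1 stands apart in RPF1 Tet-, between 8.46 and 9.18, while TKT, TALDO1 and PGLS separate the RPF1 groups from the Mock groups. How many of all features separate them likewise was not counted.

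The mean TKTL1 level was 8.71 ± 0.41 in RPF1 Tet- and 6.07 ± 0.64 in RPF1 Tet+ (log2, SD, n = 3), a difference of 2.65 with SE 0.295. With chip as a block, or from chip 2 alone, it was 2.43. Its size depends on how background is treated, since the same difference was 1.46 in the authors' processed values. Against Mock Tet-, where the probe was not well above background, RPF1 Tet- was at least 6.06-fold higher, and against Mock Tet+ at least 6.11-fold higher. These bounds set the dim group at each array's lowest detected signal and hold only for values background-corrected with an offset of 16. On the log2 scale RPF1 Tet- was 3.09 above Mock Tet- there, 2.44 with an offset of 50, 1.66 in the authors' processed values and 1.65 without background correction.

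TKTL1 was detected on 0 of the 6 Mock arrays, so no effect of Tet removal on it could be measured in Mock cells. Between the uninduced RPF1 line and Mock Tet+ it differed by 0.40, and that value rested on 1 array: without the third RPF1 Tet+ array it was 0.05. TKTL2, the other human transketolase-like gene, was detected on 0 of 12 arrays.

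TKT, the transketolase that carries the pathway's usual activity, was bright on every array, with higher signals on the arrays of both RPF1 groups. Its log2 signals were 13.92, 13.85 and 13.87 in Mock Tet+ and 13.86, 13.80 and 13.78 in Mock Tet-. They were 14.11, 14.13 and 14.02 in RPF1 Tet+ and 14.15, 14.27 and 14.17 in RPF1 Tet-. The Mock groups overlapped each other, and every RPF1 array lay above every Mock array. The log2 difference of 0.20 between RPF1 Tet+ and Mock Tet+ did not pass the test (limma adjusted p = 0.0679). RPF1 Tet- against Mock Tet- passed it (adjusted p = 0.00179), but not with chip as a block. The 3 induced arrays also lay above the 3 uninduced ones, but that log2 difference of 0.12 (95% interval -0.04 to 0.27) did not pass the test (limma adjusted p = 0.302).

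TALDO1, which carries the other exchange step of the non-oxidative branch, was lower in both RPF1 groups. Its log2 signals were 14.14, 14.15 and 14.11 in Mock Tet+ and 14.13, 14.09 and 14.17 in Mock Tet-. They were 13.83, 13.70 and 13.84 in RPF1 Tet+ and 13.80, 13.63 and 13.73 in RPF1 Tet-. The RPF1 arrays did not overlap the Mock arrays, while the induced and uninduced RPF1 arrays overlapped.

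PGLS, the lactonase of the oxidative branch, showed the lowest values in induced cells. Its log2 signals were 11.79, 11.65 and 11.67 in Mock Tet+ and 11.68, 11.76 and 11.57 in Mock Tet-. They were 11.24, 11.23 and 11.40 in RPF1 Tet+ and 10.99, 11.14 and 11.11 in RPF1 Tet-. All RPF1 arrays lay below all Mock arrays, and the induced arrays lay below the uninduced ones without overlap. For TKT, TALDO1 and PGLS alike, the share of all features that separate the groups in this way was not counted.

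RPE, the epimerase, lay between 11.76 and 11.89 in RPF1 Tet- and between 11.88 and 12.12 in the other 3 groups, so the induced range overlapped that of RPF1 Tet+ only at its edge. This gene had 3 probes, of which 2 were detected on 0 arrays, and the values are those of the third. PGD and RPIA showed no separation of groups. Group means of PGD lay between 12.39 and 12.46, and those of RPIA between 12.69 and 12.73, with overlapping arrays between neighbouring groups.

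Induction, RPF1 Tet- against RPF1 Tet+, asks what the factor changes within one line. None of the 6 enzymes other than TKTL1 was called: 0 passed a limma adjusted p under 0.05, against 13.4% of all features tested (6.67% higher, 6.72% lower), and 2 of 6 had an unadjusted p under 0.05, as did 28.1% of all features. Those were PGLS, with a log2 difference of -0.21 (SE 0.0845, adjusted p = 0.126), and RPE, with -0.21 (SE 0.0835, adjusted p = 0.13). The median over the 6 was -0.06, beside -0.01 over all features. Their 95% intervals reached from -0.40 to 0.27.

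In Mock cells, Tet- against Tet+, limma called 0 of the 6 enzymes and 0% of all features, and 0 of the 6 had an unadjusted p under 0.05 (327 of all features did). Their log2 differences lay between -0.06 and 0.04. The difference between the Tet effects of the RPF1 and Mock lines was called for 0 of the 6, against 5.13% of all features, with 0 at an unadjusted p under 0.05, against 19.1% of all features. The most negative value was -0.25 for RPE (SE 0.118, adjusted p = 0.281) and the highest 0.18 for TKT (SE 0.0969, adjusted p = 0.351).

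The uninduced RPF1 line differed from Mock at 2 of the 6 enzymes, both lower, where 15.1% of all features were called (7.63% higher, 7.49% lower). PGLS fell by 0.41 on the log2 scale (SE 0.0845, limma adjusted p = 0.00864), a 1.33-fold lower signal. TALDO1 fell by 0.34 (SE 0.0729, adjusted p = 0.0101). TKT was higher by 0.20 (SE 0.0685) at an adjusted p of 0.0679, just over the threshold. With chip as a block the calls ended: PGLS was at -0.38 (adjusted p = 0.14) and TALDO1 at -0.32 (adjusted p = 0.148). Chip 2 alone holds 1 Mock Tet+ array and gives these same differences by design. With the block the SE was 0.125 for PGLS and 0.109 for TALDO1. Among the cell markers, SFN fell by 0.86 in this comparison (limma adjusted p = 0.000212) and was at -0.79 with a chip block (adjusted p = 0.0163), and the summed signal of its list of 3 keratinocyte markers was 273 to 280 in RPF1 Tet+ and 419 to 465 in Mock Tet+. VWF rose by 0.59 (adjusted p = 0.00322; 0.57 with a chip block, adjusted p = 0.0822), and the summed signal of the 4 endothelial markers was 557 to 676 in RPF1 Tet+ and 442 to 482 in Mock Tet+. NEFL, a neurofilament subunit on the HEK293 list, fell by 0.64 (adjusted p = 0.0469), a call lost in 8 of 12 fits with 1 array left out and with chip as a block (-0.32, adjusted p = 0.553). The 7 HEK293 markers summed to 89900 to 94200 in RPF1 Tet+ and 94400 to 97800 in Mock Tet+. The part of these markers in the enzyme values was not tested.

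Induced RPF1 cells differed from Mock Tet- at 3 of the 6 enzymes, 1 higher and 2 lower, where 31.3% of all features were called (15.8% higher, 15.5% lower). PGLS fell by 0.59 (SE 0.0845, limma adjusted p = 0.000473) and TALDO1 fell by 0.41 (SE 0.0729, adjusted p = 0.00177). TKT rose by 0.38 (SE 0.0685, adjusted p = 0.00179), a 1.30-fold higher signal. RPE was at -0.20 (adjusted p = 0.0961), and PGD and RPIA were at -0.05 and -0.04. Only PGLS kept its call with chip as a block, at -0.68 (adjusted p = 0.0121), where 1 array stands for RPF1 Tet-. With the block TALDO1 was at -0.33 (adjusted p = 0.0907) and TKT at 0.34 (adjusted p = 0.0793). VIM, an intermediate filament marker of HEK293 cells, fell by 0.64 (adjusted p = 0.000378) and was at -0.76 with a chip block (adjusted p = 0.00683), and the sum of the 7 markers was 87600 to 101000 in RPF1 Tet- and 95100 to 97000 in Mock Tet-. SFN fell by 0.28 (adjusted p = 0.0254), a call lost without the first or the third Mock Tet- or the third RPF1 Tet- array and with a chip block (-0.18, adjusted p = 0.387), and its list summed to 366 to 419 in RPF1 Tet- and 431 to 464 in Mock Tet-. Their part in the enzyme values was not tested. This comparison and the one before it share no arrays, while each shares arrays with the induction comparison.

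**Figure D2:**
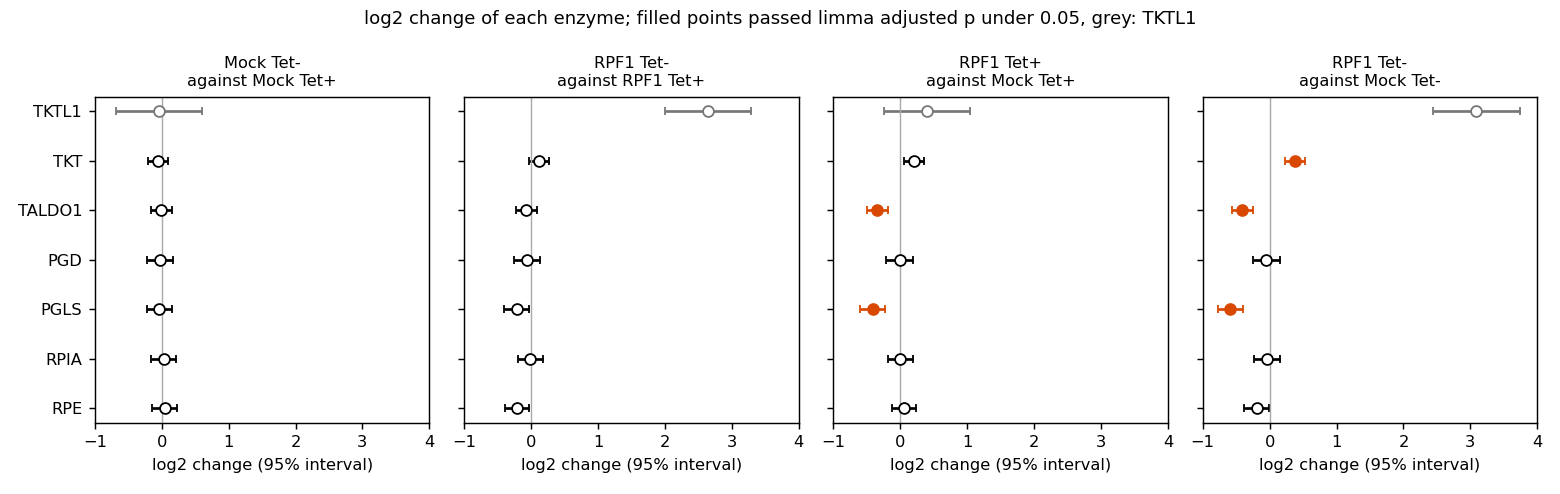
Points are log2 changes (x axis) of the 7 enzymes (y axis) in 4 comparisons, with 95% intervals from the limma fit; filled points passed an adjusted p under 0.05, and TKTL1, in grey, carries no test. PGLS and TALDO1 lie left of 0 and TKT right of 0 in both RPF1 against Mock panels, and the Mock panel holds values between -0.06 and 0.04.

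H6PD, which starts an oxidative branch of its own in the endoplasmic reticulum, was detected on 12 arrays. Its log2 difference was -0.47 in the induction comparison (SE 0.272, limma adjusted p = 0.289) and 0.40 in RPF1 Tet+ against Mock Tet+ (adjusted p = 0.361). The wide SE leaves both without a call.

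Genes that connect to the pathway were listed by function, and 100 of them, the 7 enzymes left out, were tested. In the induction comparison 10 of 100 were called, 3 higher and 7 lower, a share of 10.0% against 13.4% of all features. The median log2 change over the 100 was -0.01, as it was over all features, and medians of the 7 lists that hold none of the 7 enzymes lay between -0.14 for nucleotide synthesis and 0.04 for glycolysis. That count was 4 without the first RPF1 Tet+ array, 6 without the second and 3 without the third RPF1 Tet- array. With chip as a block it was 2, where 3.18% of all features were called, and on chip 2 alone it was 0, where 2.76% were.

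Among 9 genes of ribose and sedoheptulose side steps, 1 rose and 1 fell. TIGAR, a fructose bisphosphatase that turns glucose 6-phosphate toward the pentose phosphate pathway, rose by 0.60 (SE 0.0913, limma adjusted p = 0.00127) and kept its call when any 1 array was left out. With chip as a block TIGAR was at 0.62 (adjusted p = 0.0446), and on chip 2 alone the adjusted p was 0.0642. DERA, the deoxyribose-phosphate aldolase, fell by 0.46 (adjusted p = 0.0254), a call lost without the third RPF1 Tet+, the first RPF1 Tet- or the third RPF1 Tet- array and with chip as a block (-0.56, adjusted p = 0.131).

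Of 24 glycolysis genes, 1 was called. ENO2, an enolase, fell by 0.30 (limma adjusted p = 0.041). That call was lost in 9 of 12 fits with 1 array left out, those without the second Mock Tet+, the third Mock Tet- or the second RPF1 Tet- array being the exceptions, and with chip as a block (-0.37, adjusted p = 0.175). Of 10 genes of gluconeogenesis and glycogen, 1 was called. GBE1, the glycogen branching enzyme, fell by 0.51 (SE 0.0706, adjusted p = 0.000721), kept its call without any 1 array, and was at -0.50 on chip 2 alone (adjusted p = 0.0609) and with a chip block (adjusted p = 0.0471).

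Of 10 tested genes on a broad list around other NADPH production, 2 fell. ME2, the mitochondrial malic enzyme that works mainly with NAD, fell by 0.57 (SE 0.0941, limma adjusted p = 0.00216), with no call lost when 1 array was left out, and was at -0.46 with chip as a block (adjusted p = 0.113). MTHFD1L, a mitochondrial enzyme of folate metabolism, fell by 0.49 (adjusted p = 0.0291). It lost its call without the first or the second RPF1 Tet+ or the second or the third RPF1 Tet- array, and with chip as a block it was at -0.27 (adjusted p = 0.518).

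Among 14 users of NADPH in redox defence, 1 rose and 1 fell. HMOX1, heme oxygenase, rose by 0.61 (limma adjusted p = 0.0205), and its call was lost without the first RPF1 Tet+, the second RPF1 Tet- or the third RPF1 Tet- array and with chip as a block (0.43, adjusted p = 0.356). NQO1, a quinone reductase, fell by 0.57 (adjusted p = 0.0466), a call kept only without the third RPF1 Tet+ or the first RPF1 Tet- array, and with chip as a block it was at -0.29 (adjusted p = 0.602).

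Of 20 genes of nucleotide synthesis, which uses ribose 5-phosphate, 1 rose and 1 fell. RRM2B, a ribonucleotide reductase subunit, rose by 0.51 (limma adjusted p = 0.0262), and the call was lost without the first or the second RPF1 Tet+ or the second or the third RPF1 Tet- array and with chip as a block (0.21, adjusted p = 0.567). ATIC, which ends purine ring synthesis, fell by 0.26 (adjusted p = 0.0195), a call lost without the first or the second RPF1 Tet+ or the third RPF1 Tet- array and with chip as a block (-0.25, adjusted p = 0.26). Of 12 genes of thiamine uptake and thiamine-dependent enzymes, the cofactor group of transketolase, 0 passed the limma test. In Mock cells, Tet- against Tet+, limma called 0 of the 100 genes, and 0 had an unadjusted p under 0.05.

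**Figure D3:**
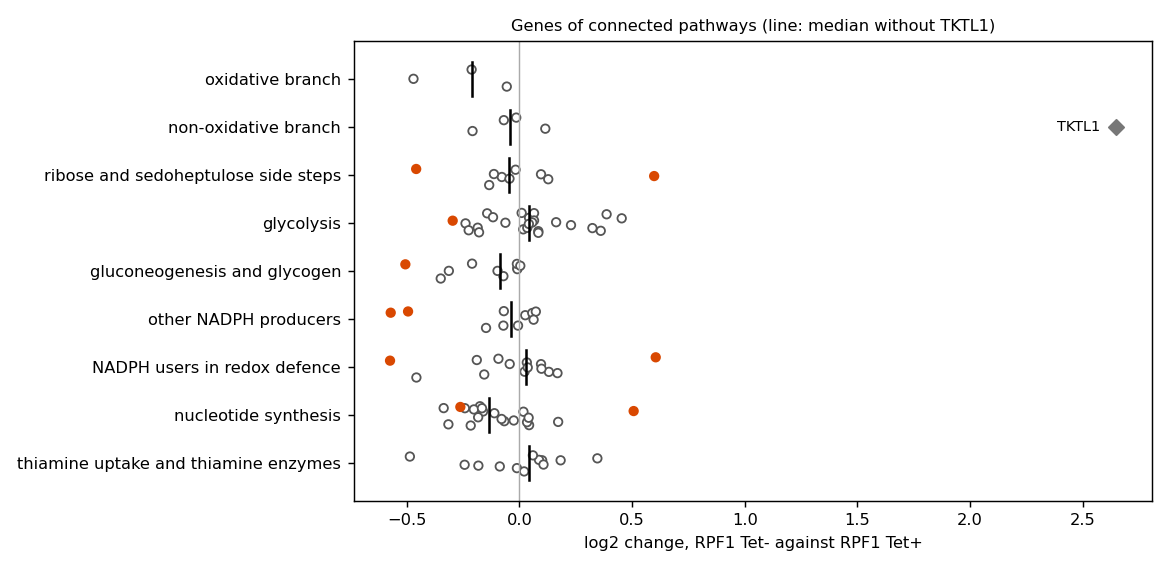
Each point is the log2 change (x axis) of 1 gene in RPF1 Tet- against RPF1 Tet+, by functional list (y axis); filled points passed a limma adjusted p under 0.05, and the black line is the list median without TKTL1. TKTL1, the grey diamond at 2.65, lies far to the right of the other genes shown, and the filled points lie between -0.57 and 0.61.

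In the induction comparison 2 of the 5 tested HEK293 markers rose, 1 fell, and the other 2, NEFL and NEFM, were not called. Of all features 13.4% were called. VIM fell by 0.62 (SE 0.0876, limma adjusted p = 0.000817) and was at -0.74 with chip as a block (adjusted p = 0.0127). KRT8 and KRT18 both rose by 0.35, with adjusted p = 0.0311 and 0.0479, and a chip block ended both calls, at 0.44 (adjusted p = 0.15) and 0.49 (adjusted p = 0.119). Leaving out the first or the third RPF1 Tet+ or the first or the third RPF1 Tet- array also ended both, and KRT18 was called only without the second RPF1 Tet+ or the second RPF1 Tet- array. The summed linear signal of the 7 HEK293 markers ranged from 89900 to 94200 in RPF1 Tet+ and from 87600 to 101000 in RPF1 Tet-.

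SFN, a 14-3-3 protein on the keratinocyte list, rose by 0.63 (SE 0.0819, limma adjusted p = 0.000462) and was at 0.73 with chip as a block (adjusted p = 0.0112). The 2 other keratinocyte markers with a probe, KRT5 and KRT14, were detected on 0 arrays, and the summed signal of the 3 ranged from 273 to 280 in RPF1 Tet+, from 366 to 419 in RPF1 Tet- and from 419 to 465 in the Mock groups. VWF fell by 0.34 (adjusted p = 0.0413), a call kept only without the third Mock Tet-, the second RPF1 Tet+ or the second RPF1 Tet- array and lost with chip as a block (-0.39, adjusted p = 0.231). CDH5 was detected on 0 arrays, and the summed signal of the 4 endothelial markers ranged from 557 to 676 in RPF1 Tet+ and from 503 to 561 in RPF1 Tet-. Their part in the enzyme values was not tested. In bulk RNA, fewer cells of a type and less RNA per cell cannot be told apart.

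The 6 genes whose log2 values over the 12 arrays were most like those of TKTL1, out of 11823 compared, were ADGRF5, HES5, FOXA2, TNK2, GFRA2 and STX5. ADGRF5 is an adhesion G protein-coupled receptor, HES5 a transcriptional repressor downstream of Notch, and FOXA2 a forkhead transcription factor. TNK2 is a tyrosine kinase, GFRA2 a co-receptor of GDNF family ligands and STX5 a syntaxin of Golgi transport. Pearson correlations with TKTL1 ran from 0.977 for STX5 to 0.991 for ADGRF5, and Spearman correlations from 0.629 for HES5 to 0.846 for ADGRF5. Spearman correlations also rank the arrays that did not detect TKTL1, whose values have no order. ADGRF5 was itself detected on 0 arrays of either Mock group, 1 of RPF1 Tet+ and 3 of RPF1 Tet-. They describe 12 arrays of 1 cell line in which 3 induced arrays stand apart.

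The 6 genes were chosen on all 12 arrays, the third RPF1 Tet+ array among them, so their values on it are a description. HES5, for example, stood at 6.60, 6.30 and 8.18 in the 3 RPF1 Tet+ arrays, and FOXA2 at 7.84, 7.81 and 8.64. In RPF1 Tet- the means were 11.24 ± 0.31 for HES5 and 10.86 ± 0.083 for FOXA2 (log2, SD, n = 3).

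**Figure D4:**
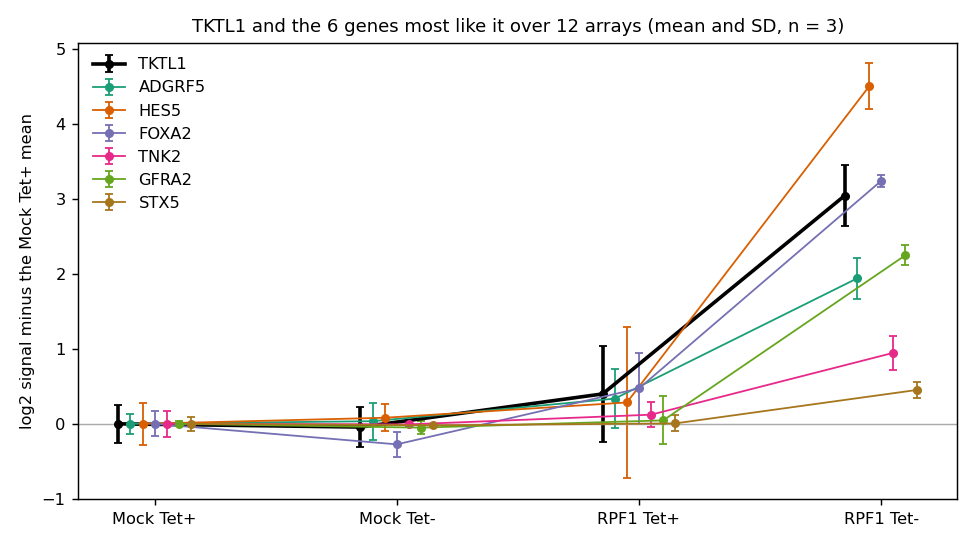
Lines join group means of log2 signal minus the Mock Tet+ mean (y axis) for TKTL1 and the 6 genes most like it, over the 4 groups (x axis); bars are SD (n = 3). Mock Tet+ is 0 by construction, and Mock Tet- lies furthest from it for FOXA2 (mean 7.35 against 7.62). All 7 genes are highest in RPF1 Tet-, which follows from choosing the 6 for likeness to TKTL1. The spread in RPF1 Tet+ is wide for TKTL1 (SD 0.64) and HES5 (SD 1.01).

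TKTL1 lies on chromosome X, and the 5 genes with a probe on each side in the RefSeq order of GRCh38.p14 were read in the induction comparison. Next to it lie TEX28, detected on 0 arrays, and EMD, which encodes emerin and was at -0.13 (SE 0.101, limma adjusted p = 0.419). Of the 7 neighbours tested, 2 fell and 0 rose, where 6.72% of all features fell and 6.67% rose. TAFAZZIN, needed for cardiolipin remodelling, fell by 0.65 (SE 0.122, adjusted p = 0.00499). It kept its call with chip as a block, at -0.87 (adjusted p = 0.00691), where 1 array stands for RPF1 Tet-. IRAK1, a kinase of interleukin 1 and Toll-like receptor signalling, fell by 0.38 (adjusted p = 0.0316), a call lost without the first or the second RPF1 Tet+ or the second or the third RPF1 Tet- array and with chip as a block (-0.26, adjusted p = 0.455). OPN1MW2 has near-identical copies, so its value of 0.18 is uncertain. The probes of OPN1LW and RPL10 were detected on 0 arrays.

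**Figure D5:**
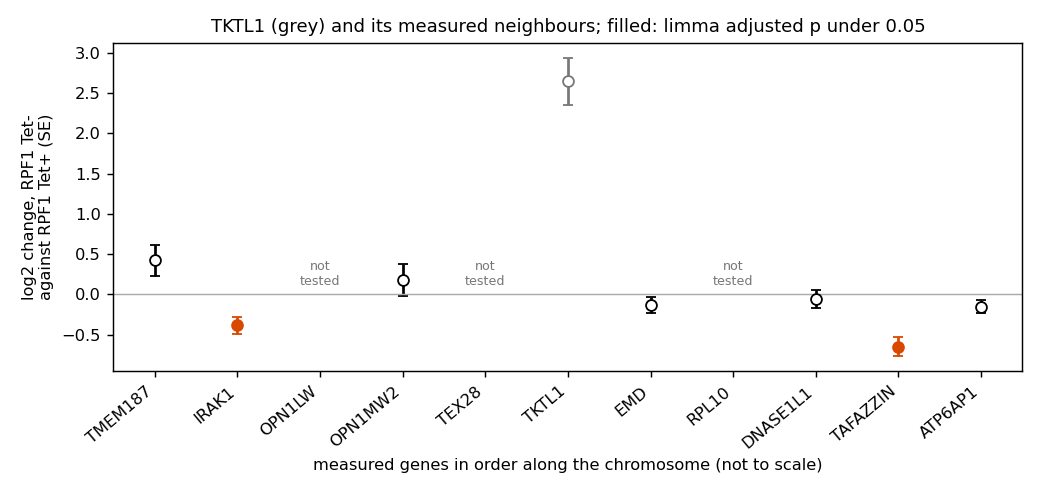
Points are log2 changes with SE (y axis) in RPF1 Tet- against RPF1 Tet+ for TKTL1 and the measured genes beside it, in chromosome order and not to scale (x axis). TKTL1 is at 2.65, and its tested neighbours lie between -0.65 and 0.42, with IRAK1 and TAFAZZIN filled as called by limma.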

How the data were processed

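Total RNA was hybridised to 12 Illumina bead arrays, and the submitters' processing notes name BeadStudio, without a version. The deposited intensity values, per the file headers, are unprocessed signals with a detection p-value for each probe, and the authors also deposited a processed intensity table on a linear scale. That table differed from a quantile normalization of the unprocessed signals by a median of 0.00626% and at most 2.11%.

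Background was corrected with the normal plus exponential model of limma (background inferred from the detection p-values, offset 16), then values were taken to log2 and quantile normalized. The filter on dim probes asked for 3 or more arrays with a detection p under 0.05 and kept 14752 of 22184. Each symbol took its kept probe with the highest mean, which left 13228 features. The probe annotation gave 1 symbol to 19715 probes and none to 2469. limma 3.58.1 in R 4.3.3 fitted 1 mean for each of 4 groups, with 8 residual degrees of freedom, and p-values were adjusted by Benjamini-Hochberg over all features. The fit was tested on simulated data.

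The members and lists were chosen with earlier results of these data known. Named genes were the 7 enzymes, the 6 genes most correlated with TKTL1 and 5 measured genes on each side of TKTL1. From each list, called genes could be named by size, at most 6 in the induction comparison and 3 in others. In lists of 8 or fewer all tested genes could be named. Not every gene that this allows is named, for example HK1 in RPF1 Tet+ against Mock Tet+. Promoter sequences are RefSeq's, and no array build is named. The first enzyme of the oxidative branch and the level of the transfected factor are not analysed here. Alternatives covered the source of values, background, scaling, filters, probe choice, prior, weights, chip, replicate number and single arrays.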

Additional observations from a re-analysis of the deposited data

Results flagged for a closer look

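The response to Tet removal differed between the RPF1 and Mock lines for 6 of the connected and marker genes, by the limma test of the difference itself. Connected genes made up 4 of them, out of 100 tested, a share of 4.0% against 5.13% of all features. The others were the markers SFN and VIM. TIGAR responded 0.66 higher in the RPF1 line on the log2 scale (SE 0.129, adjusted p = 0.014) and SFN 0.58 higher (SE 0.116, adjusted p = 0.0152). GBE1 was at -0.50 (SE 0.0998, adjusted p = 0.0156), ME2 at -0.64 (SE 0.133, adjusted p = 0.0189), ATIC at -0.38 (SE 0.0903, adjusted p = 0.0369) and VIM at -0.64 (SE 0.124, adjusted p = 0.0124). All 6 calls were lost with chip as a block, with adjusted p from 0.0778 for VIM to 0.424 for ATIC. The differences were then 0.77 for TIGAR (SE 0.194), 0.61 for SFN (SE 0.167), -0.50 for GBE1 (SE 0.158), -0.44 for ME2 (SE 0.188), -0.32 for ATIC (SE 0.141) and -0.83 for VIM (SE 0.173). ME2 also lost its call without the third Mock Tet- or the third RPF1 Tet- array, and ATIC in 10 of 12 fits with 1 array left out, all but those without the third RPF1 Tet+ or the second RPF1 Tet- array.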

How the results depend on the processing

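Counts of calls among the 6 enzymes other than TKTL1 moved by over 1.5 times only with chip: in RPF1 Tet+ against Mock Tet+ from 2 to 0, and in RPF1 Tet- against Mock Tet- from 3 to 1, both with chip as a fixed block and on chip 2 alone. Calls over all features went from 15.1% to 2.24% and 0.99%, and from 31.3% to 9.5% and 8.45%, in the same settings. No count among the 6 enzymes changed when any 1 array was left out, or with chip as a random block. The random block called 9 connected genes in the induction comparison and 4 for the difference of the Tet effects, where the main fit called 10 and 4. TKT in RPF1 Tet+ against Mock Tet+ passed in 5 alternatives, at adjusted p from 0.0204 to 0.0469, and RPE in RPF1 Tet- against Mock Tet- with array weights (adjusted p = 0.04). The TKTL1 difference between RPF1 Tet- and RPF1 Tet+ was 1.46 in the authors' processed values, 1.45 without background correction, 2.15 with an offset of 50, and 2.379 to 2.999 with 1 array left out. Detection p under 0.01 on all 12 arrays leaves TKTL1 out. Connected genes called in the induction comparison, 10 in all, were 4 with only the arrays compared, 26 with array weights, 2 with chip as a block, 0 on chip 2 alone, and 3 to 11 with 1 array left out. For the difference of the Tet effects, 4 became 10 with array weights, 0 with chip as a block and 0 on chip 2 alone, and 2 to 5 with 1 array left out, the 2 being without the third Mock Tet- or the third RPF1 Tet- array. For RPF1 Tet+ against Mock Tet+, 11 became 17 with an intensity trend and robust prior, 0 with chip as a block, 0 on chip 2 alone, and 6 to 12 with 1 array left out, the 6 being without the third Mock Tet+ array. For RPF1 Tet- against Mock Tet-, 25 became 14 with only the arrays compared, 4 with chip as a block, 2 on chip 2 alone, and 15 to 26 with 1 array left out, the 15 being without the second or the third Mock Tet- array. The cause was not tested. Correlations of the deviations from group means between arrays of the same replicate number ran from -0.40 to 0.42. Arrays of different numbers were not compared, so these values cannot settle whether the number pairs samples. The replicate block gave 5, 2 and 16 connected genes in the induction, difference and RPF1 Tet- against Mock Tet- comparisons. It moved no count among the 6 enzymes. Of 2660 values of single genes under alternatives, 2271 stayed on their side of the threshold or, for untested TKTL1 values, within a margin. That margin was the SE of the main value times the square root of 1.5. It equals 1 SD for a difference of 2 groups and is wider than that for the difference of the Tet effects. Another 375 lost their call, 8 gained one, and 6 untested TKTL1 values moved beyond the margin. The 2271 include 56 values that were not called, changed sign and stayed uncalled.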

Other observations

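In RPF1 Tet+ against Mock Tet+, 11 of the 100 connected genes were called, 4 higher and 7 lower, against 15.1% of all features. PCK2, the mitochondrial PEP carboxykinase, rose by 1.03 (SE 0.214, limma adjusted p = 0.00897) and GSR, glutathione reductase, which uses NADPH, rose by 0.43 (SE 0.0884, adjusted p = 0.0089). SLC2A1, the glucose transporter, fell by 0.87 (SE 0.168, adjusted p = 0.00663), HMOX1 by 0.78 (SE 0.149, adjusted p = 0.00636), OGDHL, a thiamine-dependent oxoglutarate dehydrogenase, by 0.54 (SE 0.0893, adjusted p = 0.00324) and TIGAR by 0.42 (SE 0.0913, adjusted p = 0.0119). With chip as a block none of these 6 was called, with adjusted p from 0.0571 for HMOX1 to 0.219 for GSR, at log2 differences of 1.06 for PCK2, 0.29 for GSR, -0.89 for SLC2A1, -0.91 for HMOX1, -0.58 for OGDHL and -0.50 for TIGAR. TIGAR also lost its call without the third Mock Tet+ array (adjusted p = 0.0516). HMOX1 and TIGAR, both lower in the uninduced RPF1 line than in Mock, were higher in induced than in uninduced RPF1 cells. MTHFD1L went the other way: it was 0.53 higher in RPF1 Tet+ than in Mock Tet+ (limma adjusted p = 0.0199) and lower after induction. Its call against Mock Tet+ was lost in 4 fits with 1 array left out and with chip as a block (0.49). These comparisons share the RPF1 Tet+ arrays.

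In RPF1 Tet- against Mock Tet-, 25 of the 100 were called, 10 higher and 15 lower, 25.0% against 31.3% of all features. ENO3, the muscle enolase, rose by 0.79 (SE 0.123, limma adjusted p = 0.000756) and GSR by 0.57 (SE 0.0884, adjusted p = 0.00081), while ME2 fell by 0.66 (SE 0.0941, adjusted p = 0.000468) and GBE1 by 0.55 (SE 0.0706, adjusted p = 0.000252). ENO3, GSR, ME2 and GBE1 kept their calls with chip as a block, but ENO3 and ME2 lost theirs on chip 2 alone. In both settings 1 array stands for RPF1 Tet-. The block gave 0.66 for ENO3, 0.62 for GSR, -0.545 for ME2 and -0.536 for GBE1. Other called genes are left out here, among them PCK2 at 0.78, RRM2B at 0.68 and OGDHL at -0.51 in the main fit. PFAS, an enzyme of purine synthesis, fell by 0.43 (SE 0.0797, adjusted p = 0.00212) and was at -0.41 with chip as a block (adjusted p = 0.0688).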
